A study of Vitis vinifera with 42 samples.

Results

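The berry colour locus of grapevine chromosome 2 was followed through 3 of its MYB genes, VviMYBA1 (VIT_202s0033g00410), VviMYBA2 (VIT_202s0033g00390) and VviMYBA3 (VIT_202s0033g00450). They were chosen by gene ID from the 28940 genes of the deposited table, with earlier results of these data known. The study had already reported lower VviMYBA1 in berries of bagged clusters from these libraries. RNA was sequenced from whole berries of Cabernet Sauvignon, a black-berried cultivar, after the seeds had been removed. T8 clusters (CB-V in the labels, bagged around véraison) were enclosed in opaque paper bags from E-L 35 until stage 36 and then uncovered, T1 clusters (CB-FH) were bagged from E-L 29 until harvest, and T2 clusters (CK) stayed in the light. T8 was sampled at 3 stages (E-L 36 to 38), T1 at 5 (E-L 31 and E-L 35 to 38) and T2 at 6 (the same with E-L 29), with 3 biological replicates (A, B and C) in each of the 14 groups. E-L stages are steps of the Eichhorn-Lorenz scale, on which E-L 29 and 31 are small green berries, E-L 35 is véraison, when berries colour and soften, and E-L 38 is harvest. A biological replicate pools berries of clusters from several vines of 1 vineyard in 1 season, so the spread between replicates is that of vines within this site and year. The study measured slightly warmer and drier air inside the bags. For this season it also reported a delayed fall of titratable acidity in T1 and T8, without a significant difference in soluble solids. Darkness, bag climate and pace of ripening cannot be told apart when bagged berries are compared with light-exposed ones.

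The MYBA proteins are MYB transcription factors that act with bHLH and WD-repeat partners and switch on the late steps of anthocyanin synthesis, above all UFGT, the glucosyltransferase that makes anthocyanidins into stable pigments. VviMYBA1 and VviMYBA2 lie side by side at the colour locus, and white-berried cultivars carry defective alleles of both. Both genes start to be transcribed at véraison, when pigment begins to collect in the skin.

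The members are close copies of each other, and the deposited annotation does not tell them apart: all 3, and 3 further IDs of the same stretch of chromosome 2, carry the same best protein match, named VvMYBA3. How reads that fit more than one copy were counted is not given in the sources used here, and strand was not stated, so the split of reads among the copies is uncertain for every value that follows. The qPCR primers that the study designed for VviMYBA1 are shown because they mark the transcript assigned to this member, all in lower case as no base is singled out. Whether they also match the other copies was not checked here.
VviMYBA1 forward primer: gcaagcctcaggacagaagaa
VviMYBA1 reverse primer: atcccagaagcccacatcaa

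Levels are in FPKM, fragments per kilobase of transcript and per library total, so that genes can be set side by side. The total per library lay between 561036 and 672526.1 FPKM (median 634536.4), and replicates of a group correlated at r = 0.956 to 0.988 across genes on the log2(FPKM + 1) scale. Differences were tested with limma on log2(FPKM + 1) over all 42 libraries, with p-values adjusted over the 21902 genes whose mean reached 1 FPKM in some group, and a gene was called at an adjusted p under 0.05. Fold changes on this scale understate the change of genes at a few FPKM. Read depth per gene is unknown, so values of 0 are given as listed at 0 and no fold is given against a group at 0 throughout. In bulk berries, fewer cells that express a gene and less RNA per cell cannot be told apart. One library of T2 at E-L 31, replicate C, stood apart in all members, and results that rest on it are given with and without it. Whether the libraries of compared groups overlap is given as a description of the values and not as a test. The share of all genes whose groups did not overlap was not computed.

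VviMYBA2 was the most abundant member by far from véraison on, and VviMYBA1 the one that varied most between treatments. From E-L 35 on, VviMYBA2 lay between 63.19 and 258.73 FPKM, VviMYBA3 between 5.95 and 38.54 FPKM and VviMYBA1 between 0.38 and 26.44 FPKM. In T2 at E-L 35, VviMYBA2 made up 75.9% ± 2.39 of the summed FPKM of the 3 genes, VviMYBA3 12.1% ± 0.95 and VviMYBA1 12% ± 2.21 (SD, n = 3).

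**Figure D1:**
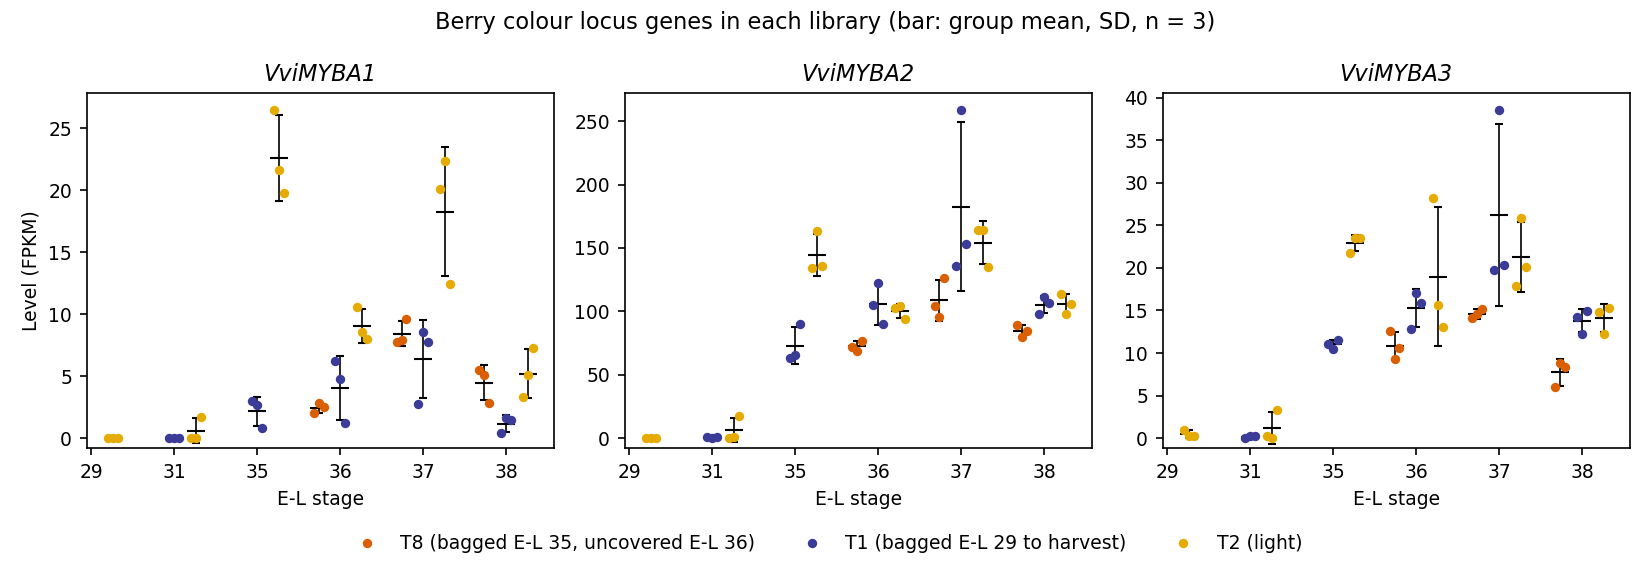
FPKM (linear axes, one scale per gene) of VviMYBA1, VviMYBA2 and VviMYBA3 in each library against E-L stage, with points coloured for T8, T1 and T2 and bars for the group mean and SD (n = 3). All 3 genes are near 0 at E-L 29 and 31 and have higher group means from E-L 35 on, and at E-L 35 the T1 points lie below the T2 points in each panel.

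Before véraison the genes were almost silent. VviMYBA1 was listed at 0 in all 3 libraries of T1 at E-L 31 and of T2 at E-L 29. VviMYBA2 had 0.47, 0.24 and 0.63 FPKM in T1 at E-L 31 and was listed at 0 in all 3 libraries of T2 at E-L 29. VviMYBA3 had 0, 0.2 and 0.24 FPKM in T1 at E-L 31 and 0.97, 0.19 and 0.2 FPKM in T2 at E-L 29. In T2 at E-L 31, replicates A and B had 0 and 0 FPKM of VviMYBA1, 0 and 1.2 FPKM of VviMYBA2, and 0.2 and 0 FPKM of VviMYBA3. Replicate C had 1.74, 17.18 and 3.36 FPKM of the same genes, so transcripts of all members were found in 1 library of 3. At E-L 31, VviMYBA2 was called lower in T1 than in T2 (log2 fold change -1.25 ± 0.47 SE, limma adjusted p = 0.044), in a comparison in which 29.1% of all genes were called. Without T2 replicate C the difference was -0.05 (adjusted p = 0.92), and the libraries of both groups overlapped. VviMYBA3 was not called (-0.60 ± 0.32, adjusted p = 0.17), and without that library its value was 0.06.

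All 3 genes were called higher at E-L 35 than at E-L 31, in covered as in light-exposed berries. VviMYBA1 reached a mean of only 2.15 FPKM in T1 at E-L 35, against 22.6 FPKM in T2. In T2 the gain from E-L 31 to E-L 35 was 5.40 ± 0.47 for VviMYBA2, 4.07 ± 0.39 for VviMYBA1 and 3.78 ± 0.32 for VviMYBA3 on the log2 scale (SE, limma adjusted p = 3.6e-11, 2.5e-10 and 2.3e-11), where 48.2% of all genes were called. Without T2 replicate C at E-L 31 the gain was 6.61 for VviMYBA2 and 4.45 for VviMYBA3, and VviMYBA1 was listed at 0 in the 2 libraries left. In T1 the gain was 5.67 ± 0.47 for VviMYBA2 and 3.39 ± 0.32 for VviMYBA3 (adjusted p = 1.6e-11 and 3e-10), and VviMYBA1, listed at 0 in T1 at E-L 31, was called higher at E-L 35 (adjusted p = 0.0011; 46.5% of all genes called). Every member was thus called higher at E-L 35 than at E-L 31 under bags. Between E-L 29 and 31 in T2, VviMYBA2 was the only member called (adjusted p = 0.0021; 50.5% of all genes called), with E-L 29 listed at 0 and the E-L 31 value set by replicate C.

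At véraison, bagged berries held far less VviMYBA1 than light-exposed ones. VviMYBA1 had 2.99, 2.65 and 0.82 FPKM in T1 at E-L 35, against 26.44, 21.58 and 19.75 FPKM in T2. The T1 libraries all lay below the T2 libraries, with a wide gap between them. The log2 fold change was -2.97 ± 0.39 (SE, 95% interval -3.76 to -2.19, limma adjusted p = 2.9e-06), and it stayed called in each of the 9 fits that left out a library or a replicate letter (-3.18 to -2.62). In this comparison 11.7% of all genes were called.

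VviMYBA2 and VviMYBA3 were also lower in T1 at E-L 35, by a smaller margin. VviMYBA2 had 63.19, 65.51 and 89.93 FPKM in T1 at E-L 35, against 134.43, 163.33 and 135.7 FPKM in T2. VviMYBA3 had 11.01, 10.48 and 11.54 FPKM in T1, against 21.79, 23.48 and 23.53 FPKM in T2. For both genes the groups did not overlap. The log2 fold change was -0.99 ± 0.32 for VviMYBA3 (adjusted p = 0.040), a call that was lost in all 9 fits with a library or letter left out (adjusted p = 0.054 to 0.24). For VviMYBA2 it was -0.99 ± 0.47 (95% interval -1.95 to -0.03, adjusted p = 0.19). The SE of each gene is drawn from all groups, E-L 31 with its divergent library included. In a fit of the groups of E-L 35 to 38 only, chosen after seeing the data, both were called (VviMYBA2 adjusted p = 8.3e-05, VviMYBA3 adjusted p = 0.0015; 18.7% of 19930 genes called).

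After véraison, VviMYBA1 in T1 lay below T2 at every stage up to harvest. It had 6.18, 4.79 and 1.2 FPKM in T1 at E-L 36, against 10.57, 8.53 and 8.01 FPKM in T2. At E-L 37 it had 2.77, 8.57 and 7.77 FPKM in T1, against 20.06, 22.34 and 12.39 FPKM in T2. At E-L 38 it had 0.38, 1.62 and 1.49 FPKM in T1, against 3.31, 5.05 and 7.23 FPKM in T2. All T1 libraries lay below all T2 libraries at each of these stages. The log2 fold changes were -1.15 ± 0.39 at E-L 36 (limma adjusted p = 0.12), -1.46 ± 0.39 at E-L 37 (adjusted p = 0.027) and -1.53 ± 0.39 at E-L 38 (adjusted p = 0.064), with 2.28%, 3.88% and 0.58% of all genes called. The call at E-L 37 was lost in 5 of the 9 fits that left out a library or a replicate letter (-1.88 to -0.95 and limma adjusted p = 0.0055 to 0.40 over all 9). Among these 5 were the fits without T1 replicate A (-1.03, adjusted p = 0.24), T2 replicate A (-1.38, adjusted p = 0.093) or T2 replicate B (-1.30, adjusted p = 0.11). In the fit of E-L 35 to 38 only, the difference at E-L 38 was called (adjusted p = 0.044; 1.11% of genes called).

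VviMYBA2 and VviMYBA3 in T1 lay among the T2 libraries from E-L 36 on. VviMYBA2 had 104.82, 122.41 and 90.11 FPKM in T1 at E-L 36, against 102.95, 104.47 and 94.27 FPKM in T2. At E-L 37 it had 135.81, 258.73 and 152.84 FPKM in T1, against 163.84, 164.04 and 134.63 FPKM in T2. At E-L 38 it had 97.78, 111.07 and 106.2 FPKM in T1, against 113.87, 97.91 and 105.97 FPKM in T2. The groups overlapped at all 3 stages, and the 95% intervals of the log2 fold change were -0.90 to 1.02, -0.77 to 1.15 and -0.97 to 0.95. VviMYBA3 had 12.81, 17.09 and 15.92 FPKM in T1 at E-L 36, against 28.27, 15.61 and 13.08 FPKM in T2. It had 19.71, 38.54 and 20.34 FPKM in T1 at E-L 37, against 17.92, 25.89 and 20.08 FPKM in T2, and 14.2, 12.27 and 14.89 FPKM in T1 at E-L 38, against 14.86, 12.24 and 15.34 FPKM in T2. These groups overlapped too, with 95% intervals of -0.89 to 0.43, -0.42 to 0.89 and -0.69 to 0.62. Replicate B of T1 at E-L 37 held the highest VviMYBA2 and VviMYBA3 of all 42 libraries.

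**Figure D2:**
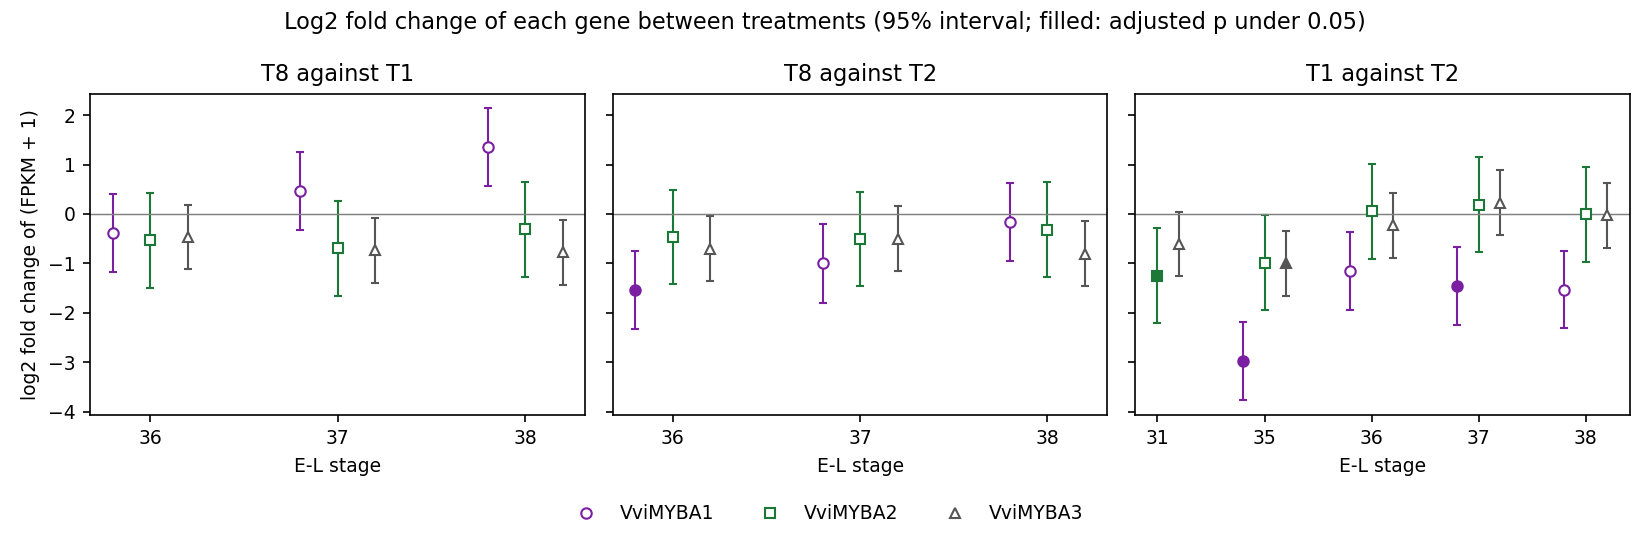
Log2 fold change of (FPKM + 1) of each gene for T8 against T1, T8 against T2 and T1 against T2 by E-L stage, with 95% intervals from limma and filled symbols at an adjusted p under 0.05. VviMYBA1 at E-L 31 is left out because T1 was listed at 0. VviMYBA1 lies below 0 at every stage shown for T1 against T2, whereas VviMYBA2 and VviMYBA3 lie within 0.23 of 0 from E-L 36 on.

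Whether the T1 difference changed with stage was tested as a contrast of contrasts. The T1 effect at E-L 36, 37 and 38 minus that at E-L 35 was 1.83 ± 0.55, 1.51 ± 0.55 and 1.45 ± 0.55 for VviMYBA1 (limma adjusted p = 0.11, 0.089 and 0.14), and no member was called in any of the 3 contrasts (0.922%, 6.92% and 3.9% of all genes called). In the fit of E-L 35 to 38 only, VviMYBA2 was called in all 3 (1.05, 1.18 and 0.98, adjusted p = 0.010, 0.0012 and 0.0072), and VviMYBA3 at E-L 37 and 38 (1.23 and 0.96, adjusted p = 0.0078 and 0.045), with 3.63%, 13.5% and 9.44% of genes called. VviMYBA1 was not called there (adjusted p = 0.056, 0.061 and 0.092).

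Averaged over E-L 35 to 38, the T1 effect was -1.78 for VviMYBA1 on the log2 scale, lower at 4 of 4 stages (exact permutation test within stages, two-sided, 12 libraries against 12, p = 1.3e-05, the smallest that the 160000 labelings can give, adjusted p = 7.5e-05 over 12 tests). It was -0.19 for VviMYBA2 (exact permutation p = 0.19) and -0.26 for VviMYBA3 (exact permutation p = 0.12). The difference between members was tested within libraries, where a shared scaling of the library drops out almost fully. The log2 level of VviMYBA1 relative to VviMYBA2 was 1.59 lower in T1 than in T2 (exact permutation, mean difference -1.59, p = 1.3e-05, the smallest possible, adjusted p = 7.5e-05), and that relative to VviMYBA3 had a mean difference of -1.52 (exact permutation p = 2.5e-05, adjusted p = 0.0001). VviMYBA2 relative to VviMYBA3 differed by 0.07 (exact permutation p = 0.54). The T1 effect on VviMYBA1 thus differed from that on the other two genes beyond the spread between libraries.

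The shift is visible as a share. VviMYBA1 took 2.68% ± 1.65 of the summed FPKM of the 3 genes in T1 at E-L 35, against 12% ± 2.21 in T2, and 3.14% ± 1.94 in T1 at E-L 36, against 7.01% ± 0.42 in T2 (SD, n = 3). At E-L 37 the shares were 2.95% ± 1.28 in T1 and 9.29% ± 1.65 in T2, and at E-L 38 they were 0.95% ± 0.53 in T1 and 4.17% ± 1.57 in T2. No T1 library reached a T2 library of its stage. The sum itself was 86.0 ± 14.1 FPKM in T1 and 190.0 ± 16.0 FPKM in T2 at E-L 35, and 120.0 ± 6.69 FPKM in T1 and 125.3 ± 8.89 FPKM in T2 at E-L 38. At E-L 38 the sums overlapped (112.4 to 125.0 FPKM in T1 and 115.2 to 132.0 FPKM in T2), whereas the VviMYBA1 shares did not.

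**Figure D3:**
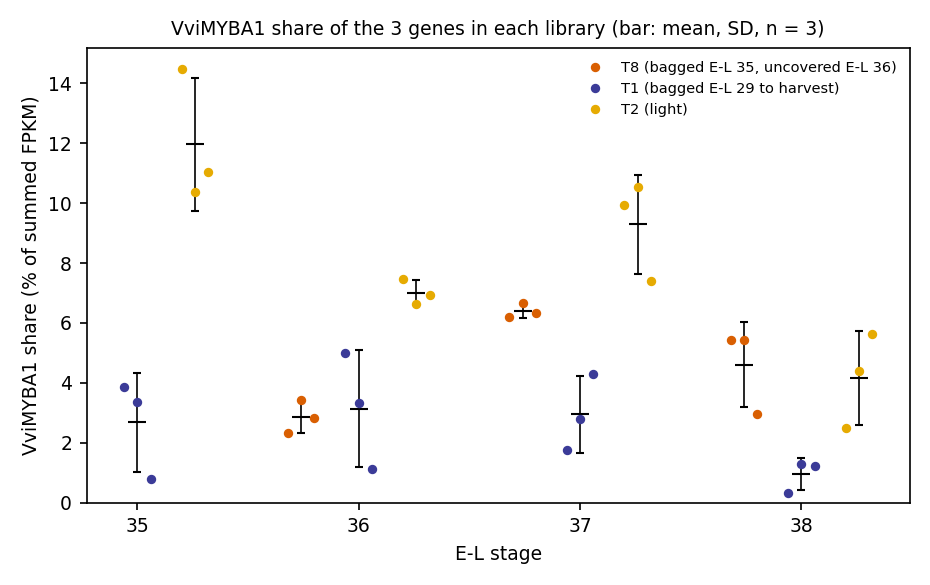
VviMYBA1 as a percentage of the summed FPKM of VviMYBA1, VviMYBA2 and VviMYBA3 in each library from E-L 35 to 38, for T8, T1 and T2, with the mean and SD (n = 3). T1 points lie below the T2 points at every stage, and T8 points lie among the T1 points at E-L 36 and among the T2 points at E-L 38.

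Berries covered only between E-L 35 and 36 had lower levels of all 3 transcripts in every library at E-L 36, the stage of uncovering. VviMYBA1 had 2.03, 2.79 and 2.52 FPKM in T8 at E-L 36, against 10.57, 8.53 and 8.01 FPKM in T2. VviMYBA2 had 72.02, 68.95 and 76.48 FPKM in T8, against 102.95, 104.47 and 94.27 FPKM in T2, and VviMYBA3 had 12.54, 9.28 and 10.55 FPKM in T8, against 28.27, 15.61 and 13.08 FPKM in T2. In each case all T8 libraries lay below all T2 libraries. The log2 fold change was -1.54 ± 0.39 for VviMYBA1 (limma adjusted p = 0.0068; 11.9% of all genes called), -0.47 ± 0.47 for VviMYBA2 (adjusted p = 0.61) and -0.70 ± 0.32 for VviMYBA3 (adjusted p = 0.17). In the fit of E-L 35 to 38 only, VviMYBA2 and VviMYBA3 were called as well (adjusted p = 0.046 and 0.024; 18.5% of genes called). The VviMYBA1 call held with any single library left out, and was lost without replicate A or B of every group (-1.34 and -1.64, adjusted p = 0.095 and 0.10).

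The T8 libraries held more seed transcripts than T2, although seeds had been removed. The mean log2(FPKM + 1) of 13 seed storage and late embryogenesis genes was 5.66 in T8 at E-L 36 (4.97 to 6.16), against 2.09 in T2 (1.54 to 3.10), 4.92 in T8 at E-L 37 (4.84 to 5.03), against 2.47 in T2 (1.36 to 3.29), and 3.53 in T8 at E-L 38 (2.97 to 4.03), against 2.26 in T2 (1.76 to 2.65). At E-L 36, 9 of the 13 genes were called higher and none lower, beside 2031 genes higher and 578 lower of the 21902 tested. With this score as a covariate the VviMYBA1 difference at E-L 36 was -1.51 and lost its call (adjusted p = 0.13). The same covariate moved VviMYBA2 in T8 against T2 to -1.27 and -1.05 at E-L 36 and 37 (-0.47 and -0.51 without it), and VviMYBA3 to -1.10 and -0.77 (-0.70 and -0.50 without it), none of them called (adjusted p = 0.18 to 0.31). Deviations from group means correlated between the score and the members at r = -0.01 for VviMYBA1, 0.31 for VviMYBA2 and 0.23 for VviMYBA3 over 42 libraries that share library and depth. In T1 at E-L 31 the score was 5.76 (5.03 to 6.47), against 3.87 in T2 (2.96 to 5.23). At E-L 35 the score was 3.11 in T1 (2.06 to 4.94) and 2.33 in T2 (2.04 to 2.88), and the VviMYBA1 difference there stayed called with the covariate. The scores of T8 and T2 did not overlap at E-L 36, 37 or 38, so the covariate could not separate seed tissue from treatment. The part of seed tissue in the T8 differences was not tested. The skin could not be scored in this way, since only 1 gene (VIT_204s0008g02250, a 3-ketoacyl-CoA synthase) met the text rule.

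After uncovering, VviMYBA1 in T8 lay below the light control at E-L 37 and among its libraries at E-L 38. It had 7.78, 7.87 and 9.58 FPKM in T8 at E-L 37, against 20.06, 22.34 and 12.39 FPKM in T2, and 5.47, 5.08 and 2.84 FPKM in T8 at E-L 38, against 3.31, 5.05 and 7.23 FPKM in T2. The groups did not overlap at E-L 37 and overlapped at E-L 38. The log2 fold changes were -1.0 ± 0.39 at E-L 37 (95% interval -1.79 to -0.21, limma adjusted p = 0.13) and -0.17 ± 0.39 at E-L 38 (95% interval -0.96 to 0.62, adjusted p = 1), where 5.64% and 0.0685% of all genes were called. Within T8, VviMYBA1 rose from E-L 36 to E-L 37 by 1.45 ± 0.39 (adjusted p = 0.0047; 28.4% of all genes called), a gain whose sign it shared with T2 over the same step (0.91 ± 0.39, adjusted p = 0.069). The T8 effect at E-L 37 and 38 minus that at E-L 36 was 0.54 ± 0.55 and 1.37 ± 0.55 for VviMYBA1 (adjusted p = 0.69 and 0.20), and no member was called in either contrast (2.12% and 2.43% of all genes called). The contrast for VviMYBA1 at E-L 38 was called with only the groups compared in the fit (1.37, adjusted p = 0.045) and without replicate C of every group (1.93, adjusted p = 0.045), and in no other alternative run (adjusted p = 0.14 to 0.72).

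VviMYBA2 and VviMYBA3 stayed below the light control in T8 until harvest. VviMYBA2 had 103.9, 95.62 and 126.19 FPKM in T8 at E-L 37, against 163.84, 164.04 and 134.63 FPKM in T2, and 89.43, 79.58 and 84.71 FPKM in T8 at E-L 38, against 113.87, 97.91 and 105.97 FPKM in T2. VviMYBA3 had 14.07, 14.58 and 15.21 FPKM in T8 at E-L 37, against 17.92, 25.89 and 20.08 FPKM in T2, and 5.95, 8.88 and 8.35 FPKM in T8 at E-L 38, against 14.86, 12.24 and 15.34 FPKM in T2. Neither gene overlapped between the groups at either stage. Single stages were not called by limma in the fit over all groups (adjusted p from 0.42 to 1). VviMYBA2 at E-L 37 was called in the fit of E-L 35 to 38 only (-0.51, adjusted p = 0.043, with 11.9% of genes called). It was also called in the fit of only the groups compared, where 1968 genes were called. Averaged over E-L 36 to 38, the T8 effect was -0.43 for VviMYBA2 and -0.67 for VviMYBA3, lower at 3 of 3 stages (exact permutation test within stages, 9 libraries against 9, p = 0.00025 for each, the smallest that 8000 labelings can give, adjusted p = 0.0006). For VviMYBA1 it was -0.90 (exact permutation p = 0.0025, adjusted p = 0.005), and without replicate C of every group -0.89 (exact permutation p = 0.056). Relative to VviMYBA2, VviMYBA1 differed by -0.47 (exact permutation p = 0.032, adjusted p = 0.054), and relative to VviMYBA3 by -0.24 (exact permutation p = 0.35). The T8 and T1 comparisons share the T2 libraries.

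Set directly against berries bagged until harvest, T8 berries had higher VviMYBA1 at E-L 38 and lower VviMYBA2 and VviMYBA3 at all stages, and none of these differences was called in the fit over all groups. VviMYBA1 at E-L 38 lay above all T1 libraries in T8 (5.47, 5.08 and 2.84 FPKM in T8, against 0.38, 1.62 and 1.49 FPKM in T1), with a log2 difference of 1.36 ± 0.39 (95% interval 0.57 to 2.14, limma adjusted p = 0.12; 0.717% of all genes called). Without replicate C of every group this difference was called (1.72, adjusted p = 0.029). VviMYBA1 overlapped between T8 and T1 at E-L 36 and 37 (-0.39 ± 0.39 and 0.46 ± 0.39). VviMYBA2 and VviMYBA3 lay below all T1 libraries in T8 at E-L 36, 37 and 38, with log2 differences of -0.53, -0.69 and -0.31 for VviMYBA2 and of -0.46, -0.73 and -0.77 for VviMYBA3. The seed score moved with this comparison too, at 5.66 in T8 and 2.38 in T1 at E-L 36 (1.63 to 3.40 in T1), 4.92 in T8 and 2.42 in T1 at E-L 37 (1.70 to 3.62 in T1), and 3.53 in T8 and 3.28 in T1 at E-L 38 (2.39 to 4.21 in T1). With it as a covariate VviMYBA2 had differences of -1.26 and -1.25 at E-L 36 and 37 and VviMYBA3 of -0.83 and -1.01, none called. The scores of T8 and T1 did not overlap at E-L 36 and 37, so the covariate could not separate seed tissue from treatment there. The part of seed tissue was not tested. No member was called at E-L 36 or 37 over all groups (6.03% and 6.13% of all genes called), whereas in the fit of E-L 35 to 38 only VviMYBA2 was called at E-L 36 and 37 (adjusted p = 0.036 and 0.0062) and VviMYBA3 at E-L 37 (adjusted p = 0.027), with 10.2% and 10.6% of genes called.

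T8 clusters were still in the light up to E-L 35, so the step into the bag can be read against T2 at that stage. Relative to T2 at E-L 35, T8 at E-L 36 had a VviMYBA1 level lower by a log2 fold change of -2.77 ± 0.39 (limma adjusted p = 3.4e-06), VviMYBA3 one of -1.03 ± 0.32 (adjusted p = 0.018) and VviMYBA2 one of -0.98 ± 0.47 (adjusted p = 0.13), where 24.9% of all genes were called. The VviMYBA3 call was lost without T8 replicate B (-0.94, adjusted p = 0.065). Light-exposed berries passed through a smaller fall of VviMYBA1 over the same interval (-1.23 ± 0.39 from E-L 35 to 36 in T2, adjusted p = 0.021; 21.5% of all genes called), a call lost without T2 replicate A at E-L 35 or replicate B or C at E-L 36 (-1.12, -1.20 and -1.16, adjusted p = 0.076, 0.059 and 0.073).

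Through ripening, VviMYBA1 swung most of the 3 genes on the log2 scale, and its mean was lower at E-L 38 than at E-L 37 in T8, T1 and T2. In T2 it had means of 22.6 ± 3.46, 9.04 ± 1.35, 18.3 ± 5.21 and 5.20 ± 1.96 FPKM at E-L 35, 36, 37 and 38 (SD, n = 3), and the fall from E-L 37 to 38 was called (-1.65 ± 0.39, limma adjusted p = 0.0017; 25.8% of all genes called). In T1 the means were 2.15 ± 1.17, 4.06 ± 2.57, 6.37 ± 3.14 and 1.16 ± 0.68 FPKM, and the fall from E-L 37 to 38 was called too (-1.71 ± 0.39, adjusted p = 0.00082; 30.7% of all genes called). In T8 the fall over this step was not called (-0.82 ± 0.39, adjusted p = 0.12), whereas that of VviMYBA3 was (-0.86 ± 0.32, adjusted p = 0.046; 27.9% of all genes called), a call lost in all 9 fits with a library or letter left out. No member was called from E-L 36 to 37 in T2 (33.6% of all genes called) or over either step between E-L 35 and 37 in T1 (26.7% and 28.9% of all genes called).

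The order of group means differed between the members. VviMYBA1 was highest in T2 at E-L 35 and 37, whose libraries overlapped with each other and lay above those of all other groups. VviMYBA2 and VviMYBA3 were highest in T1 at E-L 37 (182.5 ± 66.6 and 26.2 ± 10.7 FPKM), where the spread between libraries was widest and overlapped with T2 at E-L 37 and 35. From E-L 35 on, the lowest means were those of T1 at E-L 38 for VviMYBA1 (1.16 ± 0.68 FPKM), T8 at E-L 36 for VviMYBA2 (72.5 ± 3.79 FPKM, overlapping with T1 at E-L 35) and T8 at E-L 38 for VviMYBA3 (7.73 ± 1.56 FPKM).

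A further ID of the locus, VIT_202s0033g00380, which shares the members' best protein match, followed VviMYBA2. It was above 0 in 34 of 42 libraries with a maximum of 53.19 FPKM, in the same library in which VviMYBA2 peaked, and it too was seen in T2 at E-L 31 only in replicate C (5.27 FPKM). The T1 differences at E-L 35 to 38 lay between -0.66 and 0.21 and none was called. The other copies stayed at or near 0, with maxima of 2.05 FPKM for VIT_202s0033g00370 and 0.37 FPKM for VIT_202s0033g00440.

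Likeness of course was measured as Pearson's r over the 14 group means of log2(FPKM + 1), among 6377 tested genes with an annotated function, as a description over groups that share libraries and stages. VviMYBA2 was most like VIT_202s0033g00380 (r = 0.993), a glutathione S-transferase (VIT_204s0079g00690, r = 0.988), a ripening-related protein (VIT_216s0022g00960, r = 0.986), VviMYBA3 (r = 0.982) and a GEM-like protein (VIT_210s0071g00320, r = 0.981). VviMYBA3 had VIT_202s0033g00380 (r = 0.990), the same glutathione S-transferase (r = 0.982), a defensin-like protein (VIT_201s0010g02030, r = 0.982), VviMYBA2 (r = 0.982) and a TRANSPARENT TESTA 12-like transporter (VIT_216s0050g00910, r = 0.980) nearest to it. VviMYBA1 stood further away: its r was 0.805 with VviMYBA2, which ranked 32nd, and 0.838 with VviMYBA3, which ranked 19th. Its nearest genes were a WSD1-like O-acyltransferase (VIT_215s0046g00490, r = 0.934), a NAC domain protein (VIT_219s0027g00230, r = 0.900), a TIM50-like translocase subunit (VIT_213s0019g04270, r = 0.892), a CLE-related peptide gene (VIT_204s0023g03600, r = 0.888) and a THO complex subunit (VIT_219s0015g01220, r = 0.885). With a pseudocount of 0.1, 1 of these 5 genes remained among the nearest of VviMYBA1, and with Spearman's rho 1 of 5 did. Spearman's rho also changed most of the nearest genes of VviMYBA2 and VviMYBA3. The GEM-like protein had a rho of 0.499 with VviMYBA2 over the group means, and an r of 0.061 for deviations from group means.

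The 3 light signalling genes examined were called lower in covered berries, though not each at every stage. The list holds HY5 and HYH, bZIP factors of light responses, and CRY2, a blue-light receptor. The study had already named these genes as lower during bagging in the same libraries, so their calls here add no separate support. It reported no significant change of other photoreceptors (phytochromes, phototropins and UVR8), so the list does not stand for light signalling as a whole. At E-L 35, all 3 were called lower in T1 (median log2 fold change -1.44, against 0 over all tested genes), where 11.7% of all genes were called. HYH had 0.12 FPKM in T1 and 9.0 FPKM in T2 at that stage (-3.16 ± 0.24, limma adjusted p = 2e-10). All 3 were called lower in T1 at E-L 38 as well, where 0.58% of all genes were called. HYH and CRY2 were called lower in T1 at E-L 31, 36 and 37 too (29.1%, 2.28% and 3.88% of all genes called), and HY5 was not (-0.21, -0.84 and -0.75, adjusted p = 0.56, 0.055 and 0.068). In T8, all 3 were called lower at E-L 36 (HYH 1.76 FPKM in T8 and 10.62 FPKM in T2, -2.08 ± 0.24, adjusted p = 8.5e-07) and none at E-L 37 or 38. The shares of all genes called in T8 at these stages were 11.9%, 5.64% and 0.0685%.

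**Figure D4:**
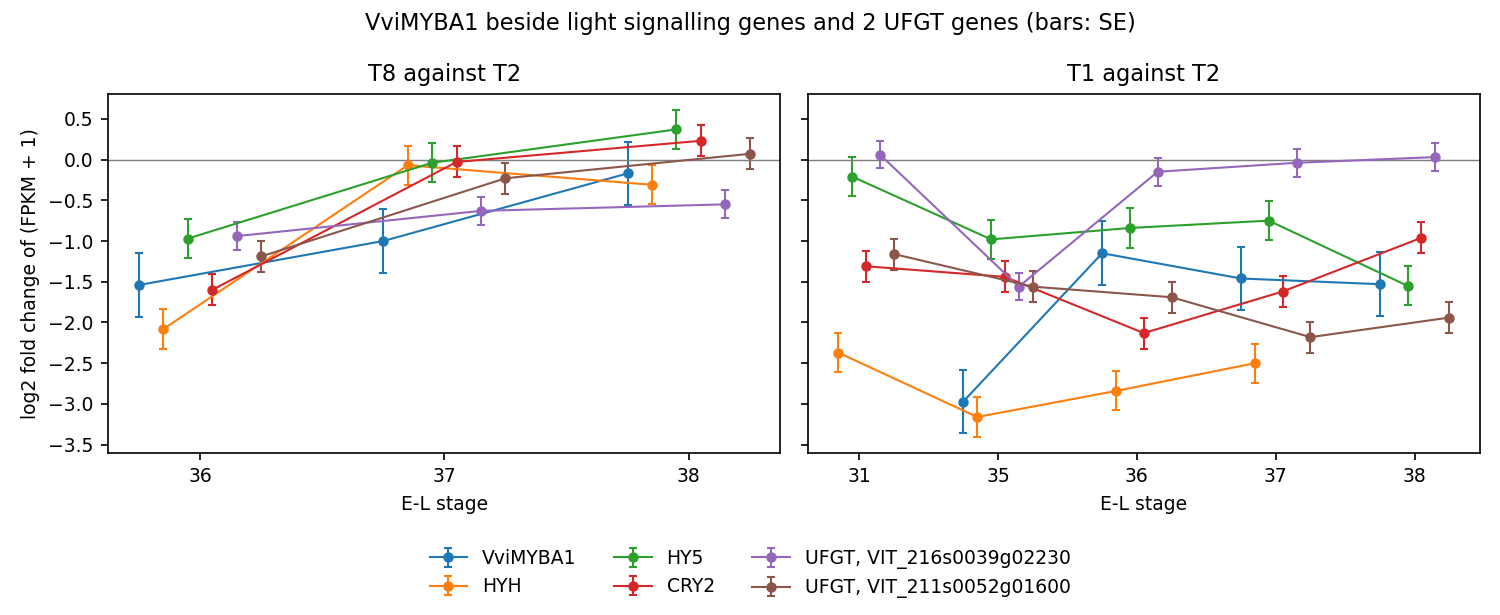
Log2 fold change of (FPKM + 1) with SE from limma for VviMYBA1, the 3 light signalling genes and 2 UFGT genes (VIT_216s0039g02230, the most abundant, and VIT_211s0052g01600), for T8 against T2 and T1 against T2 by E-L stage. VviMYBA1 at E-L 31 and HYH in T1 at E-L 38 are left out, since T1 was listed at 0. The light signalling genes are not called in T8 from E-L 37 on and lie below 0 in T1 at all stages, and in T1 from E-L 36 on VIT_216s0039g02230 lies within 0.15 of 0 whereas VIT_211s0052g01600 lies between -2.18 and -1.69.

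At E-L 35, genes were called lower in T1 in 7 of the 8 families of anthocyanin synthesis examined, and none was called higher. Of the tested genes of each family, 3 of 5 UFGT, 8 of 14 F3'5'H, 4 of 7 F3'H, 2 of 4 CHS, 2 of 2 CHI, 2 of 7 F3H, 1 of 3 LDOX and 0 of 6 DFR genes were called lower, beside 11.7% of all genes called in either direction. In T8 at E-L 36, calls were limited to 3 of 5 UFGT, 5 of 14 F3'5'H and 1 of 2 CHI genes, all lower, and no CHS, F3H, F3'H, DFR or LDOX gene was called, beside 11.9% of all genes.

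The UFGT genes differed in course. The most abundant, VIT_216s0039g02230, averaged 30.3 FPKM in T1 at E-L 35, against 90.6 FPKM in T2 (-1.56 ± 0.17, limma adjusted p = 1.2e-07). From E-L 36 on it averaged 53.5, 74.0 and 60.2 FPKM in T1, against 60.0, 75.4 and 59.1 FPKM in T2, and was not called. In T8 it averaged 30.6, 48.1 and 40.2 FPKM at E-L 36, 37 and 38, against 60.0, 75.4 and 59.1 FPKM in T2, and was called lower at E-L 36 (-0.94 ± 0.17, adjusted p = 0.00026) and E-L 37 (-0.63 ± 0.17, adjusted p = 0.022). A UFGT gene of low level, VIT_211s0052g01600, was called lower in T1 at every stage, with averages of 0.16, 0.16 and 0.03 FPKM in T1 at E-L 36, 37 and 38, against 2.87, 4.28 and 2.99 FPKM in T2 (-1.69, -2.18 and -1.94, adjusted p = 4.5e-07, 3.4e-09 and 3.6e-08). In T8 the same gene averaged 0.65, 3.52 and 3.15 FPKM at these stages and was called lower at E-L 36 alone (-1.19 ± 0.19, adjusted p = 4.6e-05). Another gene of the family, VIT_211s0052g01630, was called lower in T1 at E-L 31, 35, 36 and 37 and in T8 at E-L 36.

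Among the F3'5'H genes, which lead to blue-toned anthocyanins, the median T1 difference at E-L 35 was -2.18, against 0 over all tested genes, and VIT_206s0009g02840 was one of those called (-2.94 ± 0.27, limma adjusted p = 7.2e-09). At E-L 31, 3 of these genes were called higher in T1 (0.84 to 1.74), beside 29.1% of all genes called in either direction. None was called in T1 at E-L 36, 37 or 38, where 2.28%, 3.88% and 0.58% of all genes were called. In T8, E-L 36 had 5 genes called lower and E-L 37 had 2 (VIT_206s0009g02840, -0.89, adjusted p = 0.046, and VIT_206s0009g03010, -1.04, adjusted p = 0.042), beside 11.9% and 5.64% of all genes called. A TRANSPARENT TESTA 12-like transporter (VIT_216s0050g00910), of a family that carries flavonoids into the vacuole, averaged 39.6 FPKM in T1 at E-L 35 and 144.2 FPKM in T2 (-1.89 ± 0.31, adjusted p = 8.3e-05).

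Of 14 other flavonoid regulators, 2 were called higher and 2 lower in T1 at E-L 35 (median -0.06), beside 1469 genes higher and 1095 lower of the 21902 tested. VviWDR1 (0.52 ± 0.12, limma adjusted p = 0.0029), a WD-repeat protein, and VviMYB5a (0.40 ± 0.10, adjusted p = 0.0076) were higher, and VviMYBPA1 (-1.68 ± 0.39, adjusted p = 0.0038), an activator of proanthocyanidin synthesis, was lower. VviMYC1, the bHLH partner, averaged 23.6 FPKM in T1 and 21.3 FPKM in T2 and was not called (0.14 ± 0.11, adjusted p = 0.50). At E-L 36, VviMYC1 was called higher in T1 (0.45 ± 0.11, adjusted p = 0.023) and in T8 (0.37 ± 0.11, adjusted p = 0.024) than in T2.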

How the data were processed

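RNA of 42 libraries (14 groups of 3 biological replicates, grouped by treatment and stage as labelled) was measured by RNA-seq. The authors aligned reads to the PN40024 reference genome (Bowtie2 2.2.5 in the submitters' processing notes, Bowtie in the study's methods) and deposited FPKM per gene, rounded to 2 decimals. The counting tool and the treatment of reads that match several genes are not given in the sources used here. Values of 1030 low genes were whole multiples of a read's worth in 28.4% of cases (tolerance 0.1), so reads could not be recovered, the read depth behind each value is unknown, and no count model was used. No pair of libraries held identical values.

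The log2(FPKM + 1) values of 21902 genes whose mean reached 1 FPKM in some group were fitted with limma 3.58.1 in R 4.3.3 (14 group means, mean-variance trend, 28 residual degrees of freedom), with Benjamini-Hochberg adjustment within each comparison and calls at an adjusted p under 0.05. The fit was tested on simulated data. Exact two-sided permutation tests within stages used Python 3.11.15, and 12 such p-values were adjusted together. Shares, means and SDs were taken from the deposited FPKM. Members, gene lists and tests were chosen with earlier results of these data known. Beside the members, up to 3 called genes per list were named by smallest adjusted p, with the 5 genes of highest r per member. VviMYC1, the UFGT gene shown at uncalled stages and the further copies of the locus were named after their values were seen. Alternatives were the pseudocount, the filter, the scaling, the trend, the groups in the fit, the replicate letter as a block, a seed score as a covariate and each library or letter left out.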

Additional observations from a re-analysis of the deposited data

How the results depend on the processing

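The fall of VviMYBA1 in T1 at E-L 35 stayed called under every alternative run. Where a call or a sign changed, the cause was not tested. Values are log2 fold changes, or differences between them for contrasts of effects and of genes. With a pseudocount of 0.1, VviMYBA2 lost its call at -1.33 (T1 against T2 at E-L 31), VviMYBA3 lost its call at -1.05 (T1 against T2 at E-L 35), -0.93 (T8 at E-L 38 against E-L 37) and -1.09 (T8 at E-L 36 against T2 at E-L 35) and VviMYBA1 lost its call at -1.62 (T1 against T2 at E-L 37), -1.84 (T8 against T2 at E-L 36), -1.31 (T2 at E-L 36 against E-L 35), -1.82 (T2 at E-L 38 against E-L 37) and 1.75 (T8 at E-L 37 against E-L 36). With no filter on low values, VviMYBA2 lost its call at -1.25 (T1 against T2 at E-L 31) and VviMYBA3 lost its call at -0.99 (T1 against T2 at E-L 35) and -0.86 (T8 at E-L 38 against E-L 37). With a filter at a mean of 5 FPKM, VviMYBA3 gained a call at -0.82 (T1 at E-L 38 against E-L 37). With median-of-ratios scaling, VviMYBA1 lost its call at -1.35 (T1 against T2 at E-L 37). With median-of-ratios scaling, VviMYBA3 gained a call at -0.84 (T1 at E-L 38 against E-L 37). With median-of-ratios scaling, VviMYBA2 changed sign at 0.02 (T1 against T2 at E-L 38) and 0.11 (T8 effect at E-L 37 minus at E-L 36). With a common FPKM total per library, VviMYBA2 lost its call at -1.33 (T1 against T2 at E-L 31) and VviMYBA3 lost its call at -0.98 (T1 against T2 at E-L 35), -0.85 (T8 at E-L 38 against E-L 37) and -1.0 (T8 at E-L 36 against T2 at E-L 35). With the seed score as a covariate, VviMYBA1 lost its call at -1.51 (T8 against T2 at E-L 36) and VviMYBA3 lost its call at -0.70 (T8 at E-L 38 against E-L 37). With the seed score as a covariate, VviMYBA3 gained a call at -0.91 (T1 at E-L 38 against E-L 37). With the seed score as a covariate, VviMYBA2 changed sign at 0.21 (T8 effect at E-L 37 minus at E-L 36) and VviMYBA3 changed sign at 0.15 (T8 effect at E-L 38 minus at E-L 36). Median-of-ratios scaling moved the median of all genes by over 0.1 in few comparisons. The largest moves were in T2, from E-L 31 to E-L 35 (-0.06, against -0.22 as deposited) and from E-L 36 to E-L 37 (0, against 0.16 as deposited). With only the groups compared in the fit, VviMYBA2 lost its call at -1.25 (T1 against T2 at E-L 31) and VviMYBA1 at -1.46 (T1 against T2 at E-L 37). VviMYBA1 gained calls in that fit at -1.0 (T8 against T2 at E-L 37), 0.91 (T2 at E-L 37 against E-L 36), -0.82 (T8 at E-L 38 against E-L 37) and 1.37 (T8 effect at E-L 38 minus at E-L 36), and in the fit of E-L 35 to 38 alone at -1.53 (T1 against T2 at E-L 38). VviMYBA2 gained calls both in that fit and in the fit of E-L 35 to 38, chosen after seeing the data, at -0.99 (T1 against T2 at E-L 35), -0.47 (T8 against T2 at E-L 36), -0.51 (T8 against T2 at E-L 37), -0.53 (T8 against T1 at E-L 36), -0.51 (T2 at E-L 36 against E-L 35), 0.61 (T2 at E-L 37 against E-L 36), -0.53 (T2 at E-L 38 against E-L 37), 0.54 (T1 at E-L 36 against E-L 35), 0.73 (T1 at E-L 37 against E-L 36), -0.73 (T1 at E-L 38 against E-L 37), 0.57 (T8 at E-L 37 against E-L 36), -0.98 (T8 at E-L 36 against T2 at E-L 35), 1.05 (T1 effect at E-L 36 minus at E-L 35), 1.18 (T1 effect at E-L 37 minus at E-L 35) and 0.98 (T1 effect at E-L 38 minus at E-L 35), and in the first fit alone at -0.35 (T8 at E-L 38 against E-L 37), and in the fit of E-L 35 to 38 alone at -0.69 (T8 against T1 at E-L 37). VviMYBA3 gained calls both in that fit and in the fit of E-L 35 to 38, chosen after seeing the data, at -0.82 (T1 at E-L 38 against E-L 37), 1.23 (T1 effect at E-L 37 minus at E-L 35) and 0.96 (T1 effect at E-L 38 minus at E-L 35), and in the first fit alone at -0.55 (T2 at E-L 38 against E-L 37), 0.43 (T1 at E-L 36 against E-L 35) and 0.41 (T8 at E-L 37 against E-L 36), and in the fit of E-L 35 to 38 alone at -0.70 (T8 against T2 at E-L 36), -0.73 (T8 against T1 at E-L 37) and 0.68 (T1 at E-L 37 against E-L 36).

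A replicate block over the letters A, B and C took the call from VviMYBA3 in T8 at E-L 38 against E-L 37 (-0.86, adjusted p = 0.052) and changed no other call. Deviations from group means correlated between same-letter libraries at a mean r of 0.00222 (-0.297 to 0.328) and between other letters at -0.00108, so the letters were not taken to pair the samples.

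Leaving out 1 library or 1 letter gave the following ranges for results that changed a call or a sign. For VviMYBA1 minus VviMYBA2, the ranges were -0.53 to -0.36 (mean T8 effect over stages). For VviMYBA1, the ranges were 0.24 to 1.11 (T1 at E-L 36 against E-L 35), -0.10 to 1.36 (T1 at E-L 37 against E-L 36), -1.88 to -0.95 (T1 against T2 at E-L 37), 1.47 to 2.34 (T1 effect at E-L 36 minus at E-L 35), 0.82 to 2.12 (T1 effect at E-L 37 minus at E-L 35) and -1.34 to -1.12 (T2 at E-L 36 against E-L 35). For the same gene, further ranges were 0.72 to 1.15 (T2 at E-L 37 against E-L 36), -2.12 to -1.32 (T2 at E-L 38 against E-L 37), 1.36 to 1.56 (T8 at E-L 37 against E-L 36), -0.93 to 0.03 (T8 against T1 at E-L 36), 0.92 to 1.72 (T8 against T1 at E-L 38) and -1.64 to -1.34 (T8 against T2 at E-L 36). For the same gene, further ranges were -0.55 to 0.30 (T8 against T2 at E-L 38), 0.80 to 1.93 (T8 effect at E-L 38 minus at E-L 36) and -0.92 to -0.89 (mean T8 effect over stages). For VviMYBA2 minus VviMYBA3, the ranges were 0.17 to 0.31 (mean T8 effect over stages). For VviMYBA2, the ranges were 0.36 to 0.81 (T1 at E-L 36 against E-L 35), -0.92 to -0.45 (T1 at E-L 38 against E-L 37), -2.15 to -0.05 (T1 against T2 at E-L 31), -1.19 to -0.83 (T1 against T2 at E-L 35), -0.05 to 0.17 (T1 against T2 at E-L 36) and -0.09 to 0.42 (T1 against T2 at E-L 37). For the same gene, further ranges were -0.11 to 0.09 (T1 against T2 at E-L 38), 0.79 to 1.38 (T1 effect at E-L 37 minus at E-L 35), -1.06 to -0.86 (T8 at E-L 36 against T2 at E-L 35) and -0.16 to 0.05 (T8 effect at E-L 37 minus at E-L 36). For VviMYBA3, the ranges were -1.01 to -0.44 (T1 at E-L 38 against E-L 37), -1.04 to 0.06 (T1 against T2 at E-L 31), -1.03 to -0.95 (T1 against T2 at E-L 35), -0.48 to 0.19 (T1 against T2 at E-L 36), -0.07 to 0.40 (T1 against T2 at E-L 37) and -0.13 to 0.04 (T1 against T2 at E-L 38). For the same gene, further ranges were -0.48 to 0.81 (T2 at E-L 31 against E-L 29), -0.02 to 0.64 (T2 at E-L 37 against E-L 36), -1.17 to -0.92 (T8 at E-L 36 against T2 at E-L 35), -0.96 to -0.70 (T8 at E-L 38 against E-L 37), -0.11 to 0.41 (T8 effect at E-L 37 minus at E-L 36) and -0.42 to 0.11 (T8 effect at E-L 38 minus at E-L 36).

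Counts of genes called over all genes moved by over 1.5 times in the following cases, each given beside the count of the fit over all groups. With a pseudocount of 0.1, the counts were 201 beside 127 (T1 against T2 at E-L 38), 39 beside 15 (T8 against T2 at E-L 38) and 301 beside 157 (T8 against T1 at E-L 38). With a filter at a mean of 5 FPKM, the counts were 4 beside 15 (T8 against T2 at E-L 38). With median-of-ratios scaling, the counts were 527 beside 849 (T1 against T2 at E-L 37). With the seed score as a covariate, the counts were 717 beside 2609 (T8 against T2 at E-L 36), 632 beside 1236 (T8 against T2 at E-L 37), 4 beside 15 (T8 against T2 at E-L 38), 97 beside 1320 (T8 against T1 at E-L 36), 357 beside 1342 (T8 against T1 at E-L 37), 2806 beside 5458 (T8 at E-L 36 against T2 at E-L 35) and 310 beside 532 (T8 effect at E-L 38 minus at E-L 36). With only the groups compared, the counts were 906 beside 6365 (T1 against T2 at E-L 31), 442 beside 849 (T1 against T2 at E-L 37), 73 beside 127 (T1 against T2 at E-L 38), 1968 beside 1236 (T8 against T2 at E-L 37), 4 beside 15 (T8 against T2 at E-L 38), 93 beside 157 (T8 against T1 at E-L 38), 7367 beside 11071 (T2 at E-L 31 against E-L 29), 6684 beside 10187 (T1 at E-L 35 against E-L 31), 867 beside 464 (T8 effect at E-L 37 minus at E-L 36) and 901 beside 532 (T8 effect at E-L 38 minus at E-L 36). With only the groups of E-L 35 to 38, the counts were 1077 beside 500 (T1 against T2 at E-L 36), 1761 beside 849 (T1 against T2 at E-L 37), 222 beside 127 (T1 against T2 at E-L 38), 2363 beside 1236 (T8 against T2 at E-L 37), 31 beside 15 (T8 against T2 at E-L 38), 2038 beside 1320 (T8 against T1 at E-L 36), 2119 beside 1342 (T8 against T1 at E-L 37), 311 beside 157 (T8 against T1 at E-L 38), 724 beside 202 (T1 effect at E-L 36 minus at E-L 35), 2695 beside 1515 (T1 effect at E-L 37 minus at E-L 35), 1882 beside 855 (T1 effect at E-L 38 minus at E-L 35), 1134 beside 464 (T8 effect at E-L 37 minus at E-L 36) and 1216 beside 532 (T8 effect at E-L 38 minus at E-L 36). With a replicate letter left out 58 counts moved so far and 26 did not, and with a single library left out 61 did and 137 did not. Of the 5 genes most like each member, a pseudocount of 0.1 kept 1 for VviMYBA1 and 2 for VviMYBA2, and Spearman's rho kept 1, 1 and 2 for VviMYBA1, VviMYBA2 and VviMYBA3. Depth per gene is unknown, which limits what can be said of values near 0 at E-L 29 and 31.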
